A study of Homo sapiens with 8 samples.

Results

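The kallikrein-related peptidases KLK4 to KLK13 were followed through UWB1.289, an established line of human ovarian cancer cells without functional BRCA1, and its BRCA1-restored counterpart UWB1.289+BRCA1. These 10 genes were taken by symbol from a count table of 32803 genes, in which all 10 had a row. They were chosen by their raw counts in all 4 groups, so their levels and differences are given as a description, without p-values. The groups were parental UWB1.289 cells, here BRCA1-deficient, at passage 29, their PARP inhibitor-resistant derivative Olres-UWB1.289 at passage 56, parental UWB1.289+BRCA1 cells, here BRCA1-proficient, at passage 10 and their PARP inhibitor-resistant derivative Olres-UWB1.289+BRCA1 at passage 45. PARP inhibitors block poly(ADP-ribose) polymerases, which act in DNA repair. All were grown in medium without drug, and 2 libraries of total RNA were sequenced per group (n = 2 throughout). Each background has 1 resistant derivative, and resistance and passage changed together, so that effects of resistance, of time in culture and of that 1 derivative cannot be told apart. Deficient and proficient cells also differ in passage, at 29 against 10 in parental and 56 against 45 in resistant cells. Between them, effects of BRCA1, of time in culture and of the single line cannot be told apart either. The labels do not say whether replicates were separate cultures, and the p-values given below for other genes then measure only the spread between these libraries, which may be technical.

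Kallikrein-related peptidases are secreted serine proteases made as inactive precursors and encoded side by side on the long arm of chromosome 19. In skin they form an activation cascade in which KLK5, a trypsin-like enzyme, activates itself and KLK7, and both then cut the desmosomal proteins that hold surface cells together. Several family members, KLK5, KLK6, KLK7, KLK8, KLK10 and KLK11 among them, have been studied as tissue or serum markers of ovarian carcinoma. Secreted inhibitors of the serpin, Kazal and Kunitz types hold their activity in check, and protease-activated receptors are among their cell surface targets.

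KLK5, KLK6, KLK7, KLK8 and KLK10 were all at 0 counts in parental BRCA1-proficient cells and were all counted in the resistant derivative. KLK8 had no RefSeq promoter sequence, and KLK10 had none at its outermost annotated start. The sequences before the start sites of KLK5, KLK6 and KLK7 are shown. They are RefSeq promoter sequences of build GRCh38.p14, minus strand, written 5′ to 3′, and capitals mark CpG dinucleotides. Bases that an annotated exon on the same strand covers are left out, whereas exons on the opposite strand were not considered. The KLK5 stretch lies at chr19:50953094-50953288, that of KLK6 at chr19:50969674-50969841 and that of KLK7 at chr19:50984065-50984314. The authors' counts were made on GRCh37, so these positions do not apply to their files.
KLK5: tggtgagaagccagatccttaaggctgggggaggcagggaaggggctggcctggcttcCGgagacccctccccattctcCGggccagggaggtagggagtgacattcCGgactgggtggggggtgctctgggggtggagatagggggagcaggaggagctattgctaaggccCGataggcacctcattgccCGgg
KLK6: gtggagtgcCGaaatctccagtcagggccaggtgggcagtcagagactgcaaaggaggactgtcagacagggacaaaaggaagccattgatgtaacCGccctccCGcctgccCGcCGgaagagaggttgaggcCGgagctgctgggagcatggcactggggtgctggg
KLK7: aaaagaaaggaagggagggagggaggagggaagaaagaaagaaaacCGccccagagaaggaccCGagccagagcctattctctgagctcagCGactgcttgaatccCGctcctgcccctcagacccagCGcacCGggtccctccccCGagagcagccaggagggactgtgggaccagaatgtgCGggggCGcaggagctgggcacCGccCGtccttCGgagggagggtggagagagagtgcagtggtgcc
These stretches hold 5 CpG dinucleotides in 195 bases for KLK5, 6 in 168 bases for KLK6 and 12 in 250 bases for KLK7. Over the full RefSeq window, from 250 bases before to 50 bases after a start, KLK5 had 7 CpG dinucleotides, KLK6 had 15 and the 3 KLK7 starts had 13 to 16, against a median of 14 over 35116 windows of all genes. RefSeq windows matched 9 of the 10 genes, with 15 starts between them, and KLK8 was not matched. The windows of KLK7 overlap one another, as do those of KLK10 and those of KLK13, so the same bases can count more than once. A GC box (GGGCGG on either strand) occurred in 8 of these 15 windows and in 44.95% of all windows. A TATA box (TATAAA on either strand) occurred in 0 of the 15 and in 11.5% of all windows, an AP-1 site (TGACTCA on either strand) in 0 and in 4.95%, and a steroid receptor half-site (AGAACA on either strand) in 0 and in 14.8%. Such matches describe letters only.

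The libraries held 24094821 to 34394107 counts. Levels are in CPM, counts scaled to a common total, relative to library totals scaled by TMM, a factor that evens out differences in composition. All 12 markers of ovarian carcinoma cells had counts in every group, at a summed 3795 to 8062 CPM per library. Most of each sum came from KRT7, KRT8, KRT18 and EPCAM. WT1 was scarce, at 0.0658 CPM in parental deficient, 0.101 in resistant deficient and 0.219 in parental proficient cells, against 8.50 in resistant proficient cells. FOLR1 stood at 1.03 CPM in resistant deficient and 2.92 CPM in resistant proficient cells. Markers of squamous epithelium, a tissue rich in kallikreins, summed to 0.260 to 2.72 CPM over 5 genes, with KRT14 at 0 in 3 groups and DSG3 at 0 in 3 groups. Markers of fibroblasts summed to 1.65 to 17.1 CPM over 6 genes and those of leukocytes to 5.72 to 28.4 CPM over 6 genes. Markers of endothelium summed to 43.5 to 49.9 CPM in deficient and 3.73 to 8.70 CPM in proficient libraries over 4 genes, most of it from CDH5 in the deficient cells (35.4 CPM in parental and 38.1 CPM in resistant cells). The part of these transcripts in the results below was not tested. GC-rich transcripts stood apart between libraries: for the fifth of tested genes with at least 57.7% GC, the median log2 deviation from the mean over all libraries was 0.0828 and 0.240 in parental deficient, 1.13 and 0.734 in resistant deficient, -0.652 and -0.483 in parental proficient and -0.343 and -0.653 in resistant proficient libraries. The transcripts of the 5 members that passed the filter on low counts have 49.3% (KLK7) to 58.2% (KLK5) GC.

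Of the 10 genes, 7 had at least 1 count in some library, and KLK4, KLK9 and KLK12 had 0 counts in all 8 libraries. KLK4, which cuts enamel matrix proteins in developing teeth, KLK9 and KLK12 were therefore not detected in these counts. A count of 0 over a group allows up to 0.0460 CPM in parental deficient, 0.0481 in resistant deficient, 0.0558 in parental proficient and 0.0568 in resistant proficient cells, taking 3 counts over the group as the floor. These floors cover counting error only. The family summed to 5.46 and 5.31 CPM in parental deficient libraries, 31.17 and 25.04 CPM in resistant deficient libraries, 0 and 0 CPM in parental proficient libraries, and 13.3 and 9.74 CPM in resistant proficient libraries. The 4 groups did not overlap in this sum. Detected members numbered 6, 7, 0 and 5 in the same order. In bulk RNA, fewer cells that express a gene and less RNA per cell cannot be told apart.

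The dominant member differed between the 3 groups that had kallikrein counts. KLK6 held 53.3% of the 351 family counts in parental deficient cells (exact 95% interval 47.9% to 58.6%), with 51.8% and 54.6% in the single libraries. KLK10 held 85.4% of 1732 counts in resistant deficient cells (83.6% to 87.0%), with 85.0% and 85.8% in the single libraries. KLK5 held 82.3% of 617 counts in resistant proficient cells (79.1% to 85.3%), with 82.2% and 82.5% in the single libraries. In each case both libraries gave the same leading gene, and the second place went to KLK10 in parental deficient cells (36.5%) and to KLK6 in both resistant groups (8.26% in deficient, 9.24% in proficient cells). These shares are of counts, in which longer transcripts weigh more, and their intervals cover counting error only.

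**Figure D1:**
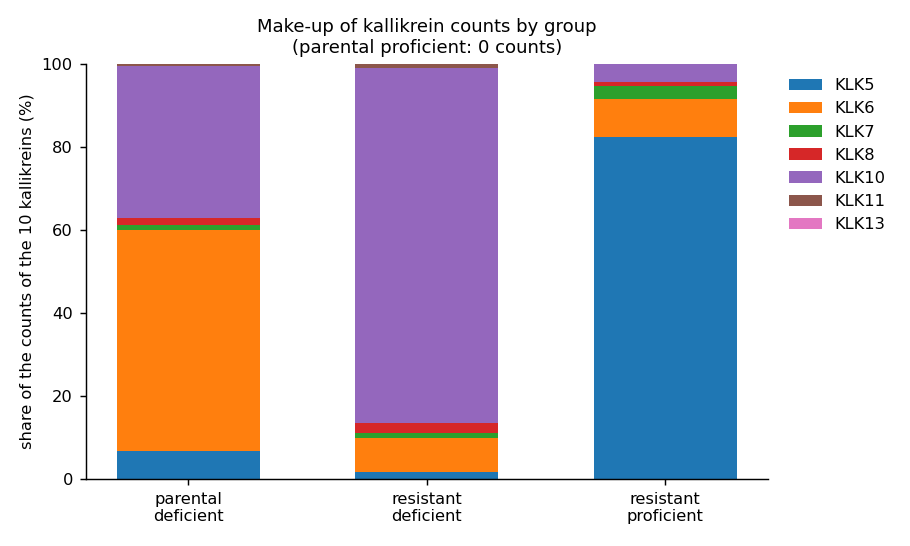
Share of the summed counts of the 10 kallikreins (y axis, percent) taken by each member in the 3 groups with counts, both libraries of a group pooled. KLK6 is the largest segment in parental deficient cells at 53.3%, KLK10 in resistant deficient cells at 85.4% and KLK5 in resistant proficient cells at 82.3%.

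KLK5, the trypsin-like enzyme at the head of the skin cascade, had 13 and 11 counts in parental deficient libraries and 16 and 14 in resistant deficient libraries. It had 0 and 0 counts in parental proficient libraries and 315 and 193 in resistant proficient libraries. In CPM these are 0.428 and 0.315, then 0.576 and 0.405, then 0 and 0, then 10.9 and 8.03. The resistant proficient libraries were thus the highest of the 8 by a wide margin, the parental proficient libraries the lowest, and the 2 deficient groups overlapped. KLK5 was at least 170-fold higher in resistant than in parental proficient cells, a bound set by the floor of 3 counts over the parental group. Such bounds take the level of the counted group as observed, without its counting error. The bound is smaller with 1 parental library left out, since the floor then rests on fewer counts: 93.4-fold without replicate 1 and 78.2-fold without replicate 2. Between resistant and parental deficient cells the log2 difference in KLK5 was 0.39 ± 0.42 (SE).

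KLK10, a family member whose peptidase activity is weak and which was first described as lost in breast tumour cells, had the highest level of any member in any group. It had 61 and 67 counts in parental deficient libraries, 736 and 743 in resistant deficient libraries, 0 and 0 in parental proficient libraries and 22 and 5 in resistant proficient libraries. The CPM values were 2.01 and 1.92, then 26.5 and 21.5, then 0 and 0, then 0.763 and 0.208. No group overlapped another. The log2 difference between resistant and parental deficient cells was 3.61 ± 0.29 (SE), 12.2-fold, and ranged from 3.42 to 3.72 over the 17 other ways of processing tried. In proficient cells KLK10 was at least 8.70-fold higher in the resistant derivative. That bound rests on replicate 1: without it the bound was 3.86-fold, without replicate 2 it was 14.0-fold, and without parental replicate 1 or 2 it was 4.78-fold or 4.01-fold.

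KLK6, a trypsin-like enzyme named neurosin for its abundance in brain and often raised in ovarian tumours, was the leading member in parental deficient cells. Its counts were 86 and 101 in parental deficient, 70 and 73 in resistant deficient, 0 and 0 in parental proficient and 31 and 26 in resistant proficient libraries. In CPM it stood at 2.83 and 2.90, then 2.52 and 2.11, then 0 and 0, then 1.08 and 1.08. Both resistant deficient libraries were below both parental ones, by a log2 difference of -0.31 ± 0.25 (SE), which was -0.59 with the GC trend of each library removed. Resistant proficient cells had at least 19.3-fold more KLK6 than parental proficient cells (10.6-fold and 8.90-fold as the bound without parental replicate 1 or 2). KLK6 was lower in every resistant deficient library and higher in every resistant proficient library than in the parental cells of the same background.

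**Figure D2:**
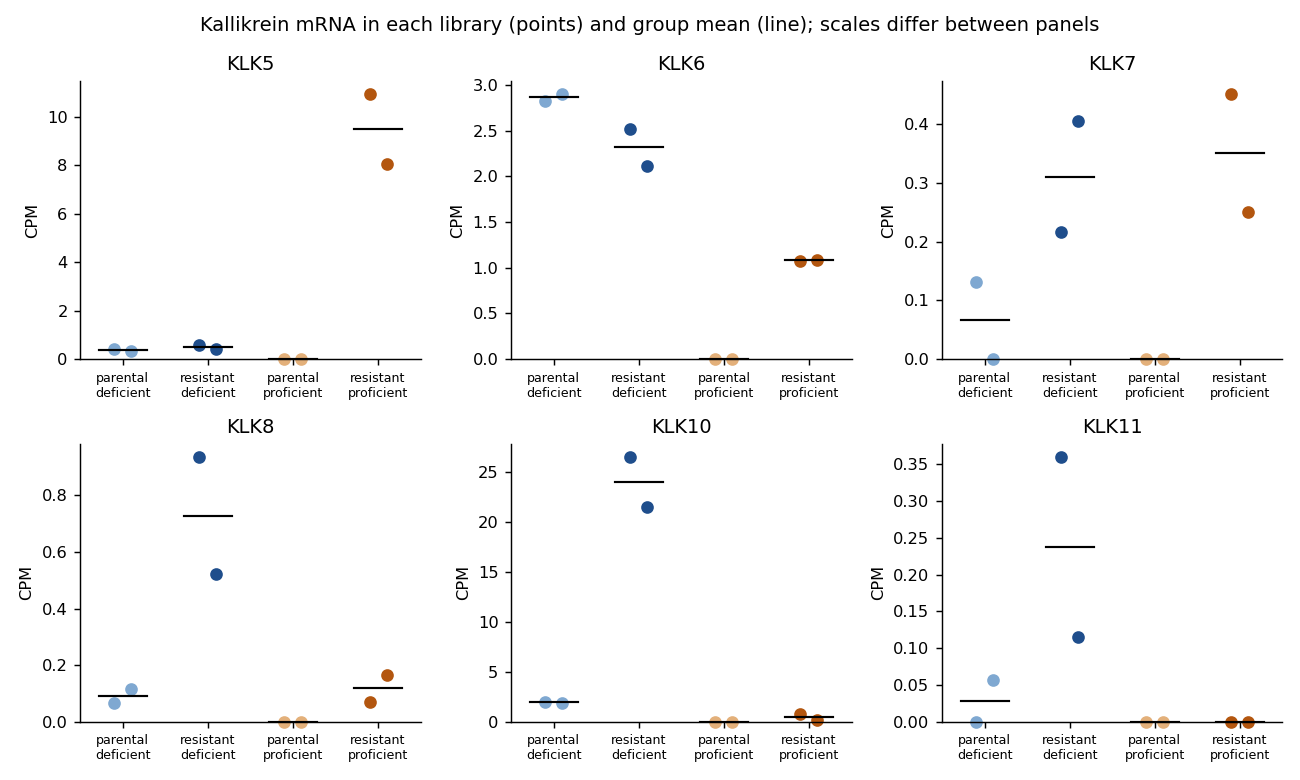
CPM (y axis, linear, own scale in each panel) of the 6 kallikreins with more than 2 counts, for the 2 libraries of each group (points) and their mean (line). All parental proficient points lie at 0, KLK10 is highest in resistant deficient cells at 21.5 and 26.5 CPM, and KLK5 is highest in resistant proficient cells at 8.03 and 10.9 CPM.

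KLK7, the chymotrypsin-like enzyme that KLK5 activates in skin, was rare throughout. It had 4 and 0 counts in parental deficient, 6 and 14 in resistant deficient, 0 and 0 in parental proficient and 13 and 6 in resistant proficient libraries. Both resistant groups lay above both parental groups, and the resistant groups overlapped. The log2 difference in deficient cells was 2.28 ± 1.02 (SE) and was 1.21 without parental replicate 2. Without parental replicate 1 the only parental library left had 0 counts, which allows a bound of at least 3.60-fold higher. In proficient cells KLK7 was at least 6.28-fold higher in the resistant derivative, with a bound of 3.45-fold or 2.89-fold without parental replicate 1 or 2.

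KLK8, a trypsin-like enzyme known as neuropsin, was also highest in resistant deficient cells. It had 2 and 4 counts in parental deficient, 26 and 18 in resistant deficient, 0 and 0 in parental proficient and 2 and 4 in resistant proficient libraries. The resistant deficient libraries, at 0.936 and 0.520 CPM, were above all others, and the parental deficient (0.0658 and 0.115 CPM) and resistant proficient libraries (0.0694 and 0.166 CPM) overlapped. The log2 difference between resistant and parental deficient cells was 2.91 ± 0.71 (SE). In proficient cells the resistant derivative stood at 2.11 times the floor of the parental group, on 6 counts. Its 95% counting interval began at 0.0417 CPM, under the upper limit of 0.0686 CPM for the parental group. KLK8 was not called there. The value became 1.16 times the floor without parental replicate 1, and without parental replicate 2 the level lay within the floor, at 0.973 times it.

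KLK11, a trypsin-like enzyme studied as a serum marker, had 0 and 2 counts in parental deficient and 10 and 4 in resistant deficient libraries, and 0 in all 4 proficient libraries. Its ratio between resistant and parental deficient cells was 7.33, with an exact 95% counting interval of 1.68 to 66.4. KLK13 had 2 counts, both in resistant deficient replicate 1, and allows no fold. Neither gene passed the filter on low counts.

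Relative to transcript length, the order of members changed with the group. In parental deficient cells KLK6 led at 1.45 CPM per kb, followed by KLK10 at 0.585, KLK5 at 0.237, KLK8 at 0.0618, KLK7 at 0.0313 and KLK11 at 0.0178. In resistant deficient cells the order was KLK10 at 7.15 CPM per kb, KLK6 at 1.17, KLK8 at 0.499, KLK5 at 0.313, then KLK7 and KLK11 both at 0.148. In resistant proficient cells it was KLK5 at 6.05 CPM per kb, KLK6 at 0.546, KLK7 at 0.167, KLK10 at 0.145 and KLK8 at 0.0808. Neighbours in this order whose libraries overlapped were KLK8, KLK7 and KLK11 in parental deficient cells, KLK8 and KLK5, and KLK7 and KLK11, in resistant deficient cells, and KLK7, KLK10 and KLK8 in resistant proficient cells. Lengths are those of the merged GENCODE v29 exons on GRCh38 and not of the isoforms present.

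The fit over all tested genes called KLK8 and KLK10 higher in resistant than in parental deficient cells (2 of 5 members tested), where 28.9% of 16221 genes were called higher and 27.0% lower, and 1 of the members without resistant deficient replicate 1. In proficient cells it called KLK5, KLK6, KLK7 and KLK10 higher (4 of 5), where 25.9% of all genes were called higher and 27.8% lower. A call is a Benjamini-Hochberg adjusted p under 0.05 from edgeR's quasi-likelihood test over all 16221 genes. Because the genes were chosen with these values in view, and genes at 0 in 1 group passed the filter only through the other, nothing is read from these numbers. The median log2 difference of all genes tested was 0.03 in deficient and 0.00 in proficient cells.

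Between the parental lines, KLK5, KLK6 and KLK10 were called lower in proficient cells (3 of 5 members tested), against 30.1% of all genes called lower and 32.3% higher. These lines differ in passage as well as in BRCA1, as do the resistant derivatives, and such effects cannot be told apart. The parental proficient level was at least 51.3-fold lower for KLK6, 35.2-fold lower for KLK10 and 6.65-fold lower for KLK5. With 1 parental proficient library left out these bounds fell to between 23.6-fold and 28.2-fold for KLK6, between 16.2-fold and 19.3-fold for KLK10 and between 3.07-fold and 3.65-fold for KLK5. The 3 members with at least 10 counts in each parental deficient library all had 0 counts in both parental proficient libraries, as did 56 of 14808 genes of the whole table with that many counts (0.378%). At least 10 counts in each resistant proficient library after 0 in both parental proficient libraries were seen for KLK5 and KLK6 (2 of 10 members) and for 59 of 13432 genes at 0 in the parental proficient cells (0.439%). Both counts use values that chose the genes.

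Between the resistant derivatives, KLK5 was higher in proficient cells by a log2 of 4.28 ± 0.31 (SE), 19.5-fold, or 5.06 with the GC trend removed, and KLK10 was lower by -5.56 ± 0.35, 47.0-fold. Without resistant proficient replicate 1 the KLK10 value was -6.78 and without replicate 2 it was -4.94. KLK8 was lower by a log2 difference of -2.61 ± 0.72 and KLK6 by -1.10 ± 0.28, which was -0.52 with the GC trend removed. KLK7 differed by 0.17 ± 0.78, within its spread, and KLK11, at 0 in proficient cells, was at least 4.19-fold lower there (between 1.85-fold and 2.24-fold with 1 resistant proficient library left out, 1.995-fold without resistant deficient replicate 1). The fit called 1 of the 5 members higher and 3 lower, against 36.3% of all genes called higher and 37.5% lower. Its term for the difference between the resistance effects was called positive for KLK5 and KLK6, beside 21.4% of all genes positive and 25.3% negative. That term rests on fitted folds over a group at 0 counts, and all these calls on the counts that chose the genes, so nothing is read from them. These comparisons share libraries with one another.

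The other kallikrein genes were nearly silent. KLK2, KLK3 (prostate-specific antigen) and KLK15 had 0 counts in all 8 libraries, KLK1 had 1 count, KLK14 had 2 counts in each of 2 deficient libraries and the pseudogene KLKP1 had 1 count in each of 2 libraries. KLKB1, the unrelated plasma kallikrein, stayed at or under 0.0806 CPM in every library. None of these 7 genes passed the filter. By GENCODE v29, exons of KLK5 and KLK6 overlap the antisense gene AC011483.2. Exons of KLK10 overlap the antisense gene AC011473.2 and those of KLK12 the antisense gene AC011473.3. Exons of KLK8 are shared with AC011473.4 on the same strand, as are all 754 exon bases of KLK9. None of the overlapping genes has a row in the count table. The sources used here do not give the strand setting of the counting, so that reads of these kallikreins cannot be told apart from those of the overlapping genes.

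Across the 8 libraries, log2 CPM of KLK8 and KLK10 moved most alike among the members (Pearson r = 0.901), followed by KLK6 and KLK10 (0.824) and KLK5 and KLK7 (0.773), and KLK5 and KLK10 were least alike (0.223). These values describe 8 points in 4 groups of shared origin. Among all other genes tested, those most like KLK5 were NDUFA4 (r = 0.996), MUC16 (0.995), ANTXR2 (0.991), KCTD10 (0.990) and AHNAK (0.989). MUC16 encodes the CA-125 antigen, the standard serum marker of ovarian carcinoma, and stood at 215 ± 5.30 CPM in parental deficient, 246 ± 9.05 in resistant deficient, 84.3 ± 6.73 in parental proficient and 821 ± 48.3 in resistant proficient cells (mean ± SD). Its highest and lowest groups were those of KLK5, as for the other genes named as most like KLK5, which follows from how they were picked. The genes most like KLK10 were WDR54 (0.995), COMMD4 (0.994), TRAPPC2L (0.994), BRD9 (0.993) and ALG1 (0.993). These names depend on how low counts are treated: with a prior count of 0.5 in place of 2, only 1 of the 5 genes stayed among the first 5 for KLK5 and 0 of 5 for KLK10.

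Neighbouring genes were read to see whether the cluster's surroundings moved with it. Of the 25 genes on each side of the kallikrein genes, 19 passed the filter. In deficient cells, 15 of these 19 rose in the resistant derivative and 1 fell, with a median log2 difference of 1.46, beside 28.9% and 27.0% of all genes and their median of 0.03. With the GC trend removed 11 of 18 rose and 2 fell, and the median was 0.95. In proficient cells 4 of 19 rose and 3 fell (25.9% and 27.8% of all genes), with a median of 0.29, and 4 in all passed without parental proficient replicate 1. MYH14, a non-muscle myosin heavy chain, rose in resistant deficient cells by a log2 of 5.33 ± 0.21 (SE, edgeR adjusted p = 2.31e-08) whereas its log2 difference in proficient cells was -5.11 ± 0.29 (edgeR adjusted p = 1.22e-07). MYBPC2, a muscle myosin-binding protein, fell in both (-3.62 and -2.01), and EMC10, a subunit of the membrane protein insertion complex, rose in both (1.43 and 0.62).

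ZNF175, a zinc finger gene beyond the SIGLEC genes, went from 4.25 ± 0.0422 CPM in parental deficient to 9.15 ± 0.392 CPM in resistant deficient cells, and from 0.130 ± 0.0122 to 6.02 ± 0.132 CPM in proficient cells. It rose in both comparisons, by a log2 of 1.11 ± 0.17 (edgeR adjusted p = 0.000244) and 5.49 ± 0.29 (edgeR adjusted p = 6.61e-08), and like KLK5, KLK6 and KLK10 it was lowest in parental proficient cells. The genes right beside the cluster were low: SNORD88C stood at 0.163 to 0.270 CPM, SNORD88A had a mean of at most 0.0180 CPM in any group, and LINC01869, SIGLEC9 and SIGLEC7 had 0 counts. CTU1, a tRNA thiolation enzyme next to the cluster, did not pass the test in deficient cells (0.20 ± 0.36), where it fell by 1.15 on the log2 scale with the GC trend removed. In resistant proficient cells it fell by 1.33, a call lost with DESeq2 (-1.32) and without parental replicate 1 (-0.996) or resistant replicate 2 (-0.99). CD33, a myeloid sialic acid receptor singled out here after its values were seen, was at 0 in 3 groups and at 2.18 CPM in resistant deficient cells, at least 47.3-fold higher than in their parental cells. Between the parental lines 3 neighbours were higher and 9 lower in proficient cells, and 4 were higher and 2 lower with the GC trend removed. Between the resistant derivatives 3 were higher and 15 lower in proficient cells. Over all genes tested, 32.3% were higher and 30.1% lower between the parental lines, and 36.3% and 37.5% between the resistant derivatives. GC-rich transcripts stood apart between the resistant derivatives as well, and no count with the GC trend removed is given for them here.

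**Figure D3:**
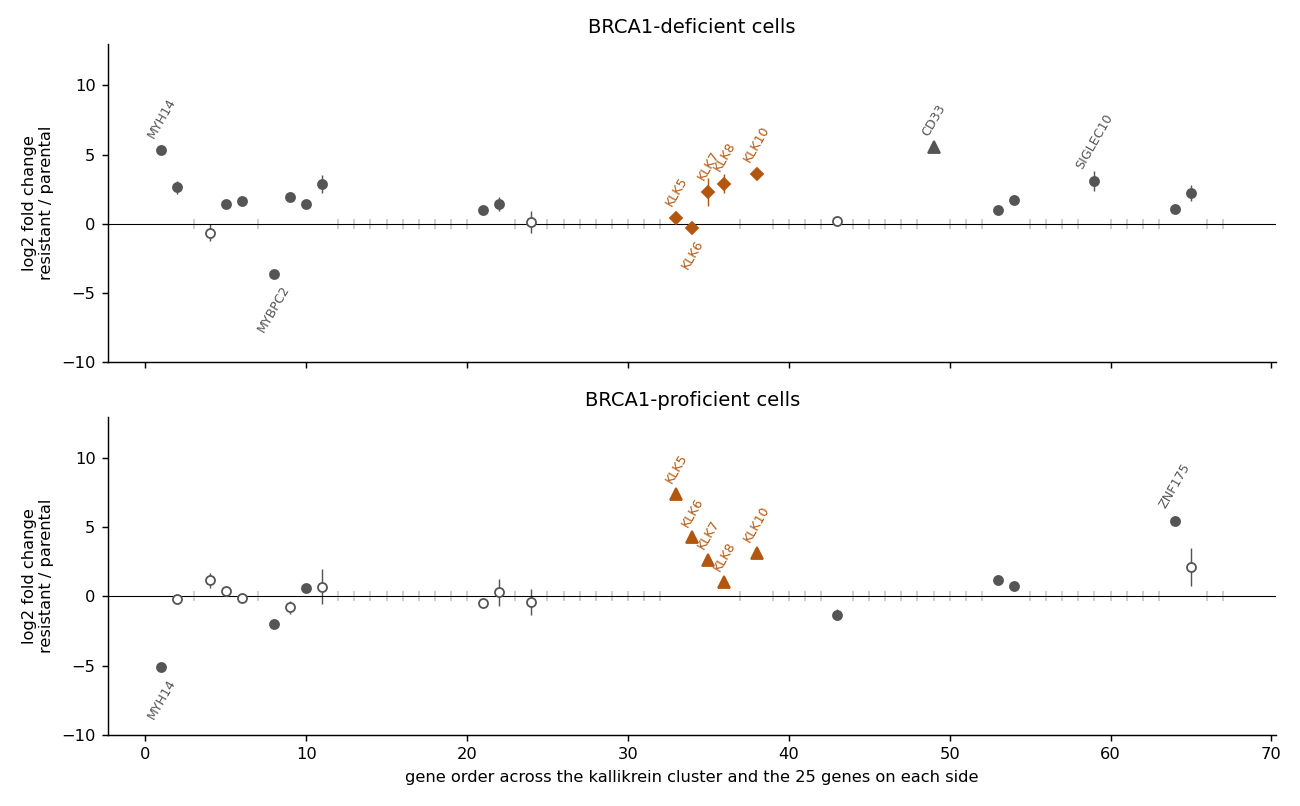
Log2 fold change of resistant against parental cells (y axis) by gene order across the kallikrein cluster and the 25 genes on each side, deficient cells above and proficient cells below. Orange diamonds are kallikreins (with SE, no test shown), triangles are lower bounds against a group at 0 counts and grey circles are neighbours (filled where the edgeR adjusted p is under 0.05). Ticks on the zero line are genes without a plotted fold, among them KLK11, whose ratio in deficient cells was 7.33. In deficient cells 15 of 19 neighbours lie above 0 and pass the test, and 4 of 19 do so in proficient cells.

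The genes around the peptidases are given by role. Over all genes tested, 28.9% rose and 27.0% fell in resistant deficient cells, and 25.9% rose and 27.8% fell in resistant proficient cells, and these shares stand beside the counts of each list. Of 10 inhibitor genes tested, 3 rose and 4 fell in resistant deficient cells, and 5 rose and 3 fell in resistant proficient cells, with medians of 0.11 and 0.27. SLPI, the secretory leukocyte peptidase inhibitor, fell in deficient cells from 298 ± 12.4 to 82.4 ± 1.89 CPM (log2 difference -1.85 ± 0.08, edgeR adjusted p = 5.98e-08) and did not pass the test in proficient cells (0.11 ± 0.08, and 0.27, which passed, without resistant replicate 2). PI3, the elastase inhibitor elafin, fell in both backgrounds (-3.08 and -2.45). SERPINA1, alpha-1-antitrypsin, rose in both (1.40 and 1.13), as did SPINT1, a Kunitz inhibitor of membrane serine proteases (0.30 and 0.58), although SPINT1 in deficient cells turned to -0.28 with the GC trend removed and lost its call when resistant deficient replicate 1 (0.20), either parental deficient library (0.34 and 0.23) or parental proficient replicate 1 (0.27) was left out. A2M, the broad protease trap alpha-2-macroglobulin, did not pass the test in deficient cells (0.57 ± 0.29), but did so with the GC trend removed (0.74) and without parental replicate 1 (1.011), and rose in proficient cells (5.51 ± 0.41). SERPINF2, alpha-2-antiplasmin, rose in deficient cells (1.19, but 0.51 and no longer called with the GC trend removed) and was 9.51-fold lower in resistant than in parental proficient cells (counting interval 2.95 to 48.8, from 3 and 29 counts).

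Among 18 receptors and substrates tested, 4 rose and 5 fell in resistant deficient cells, and 9 rose and 4 fell in resistant proficient cells, with medians of 0.10 and 0.84. F2R, the protease-activated receptor PAR1, rose in both backgrounds (1.23 and 1.13). FN1, fibronectin, an extracellular matrix protein that kallikreins cut in vitro, fell in both (-0.75 and -5.52). IGFBP3, a carrier of insulin-like growth factors, rose in deficient cells (1.54) and fell in proficient cells (-1.41). MUC16 rose in both (0.19 and 3.28), although the smaller change lost its call in 7 of 17 other ways of processing, among them when resistant deficient replicate 2 (0.13), either parental deficient library (0.22 and 0.14), parental proficient replicate 1 (0.16) or either resistant proficient library (0.16 in both) was left out. CDH1, E-cadherin, did not pass the test in deficient cells (-0.13 ± 0.07, but -0.23 and called without resistant replicate 2) and rose in proficient cells (0.99), and the same held for APP, the amyloid precursor protein (0.04 ± 0.06, but 0.22 and called with the GC trend removed, and 0.70).

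Of 15 other serine proteases and cofactors of the epithelial surface tested, 5 rose and 3 fell in resistant deficient cells and 3 rose and 3 fell in resistant proficient cells, with medians of 0.20 and -0.54. TMPRSS4, a membrane-bound serine protease, rose in deficient cells from 57.1 ± 2.19 to 157 ± 10.3 CPM and fell in proficient cells from 112 ± 4.82 to 20.3 ± 2.44 CPM (log2 differences 1.46 and -2.45). HTRA1, a secreted protease, rose in both (2.86 and 2.45). TMPRSS2 rose in deficient cells (3.82) and did not pass the test in proficient cells (-0.55 ± 0.37). F3, tissue factor, did not pass it in deficient cells (-0.09 ± 0.06, but called at 0.22 with the GC trend removed and at -0.18 without resistant replicate 2) and fell in proficient cells (-3.14). PRSS23 fell in deficient cells (-0.59) and rose in proficient cells (0.89).

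The list of regulators held steroid receptors, epithelial transcription factors and DNA methyltransferases. Of 23 tested, 3 rose and 9 fell in resistant deficient cells, and 4 rose and 11 fell in resistant proficient cells, with medians of -0.06 and -0.32. EHF, an epithelial transcription factor of the ETS family, fell in deficient cells from 159 ± 2.94 to 0.956 ± 0.283 CPM and rose in proficient cells from 12.4 ± 0.396 to 107 ± 10.9 CPM. Its log2 differences were -7.34 ± 0.15 (edgeR adjusted p = 1.73e-10) and 3.12 ± 0.11 (edgeR adjusted p = 4.06e-09). EHF was lowest in the resistant deficient cells, where KLK10 was highest. It was highest in parental deficient cells, where KLK10 stood at 1.96 CPM, and at 12.4 CPM in parental proficient cells, where KLK10 had 0 counts. A link between EHF and KLK10 was not tested. DNMT3B, a de novo DNA methyltransferase, fell in both backgrounds (-1.75 and -1.84) and was highest in parental proficient cells at 112 CPM. The other DNA methyltransferases on the list peaked elsewhere, DNMT1 in resistant deficient cells at 357 CPM and DNMT3A in parental deficient cells at 38.0 CPM. A link of these genes to the kallikrein counts was not tested. GRHL1, a grainyhead transcription factor of the epidermis, fell in both (-1.03 and -1.19), and so did VDR, the vitamin D receptor (-0.71 and -0.57).

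Squamous differentiation genes are expressed together with kallikreins in skin. Of 26 such genes in the table, 9 were tested, of which 1 rose and 4 fell in resistant deficient cells and 0 rose and 4 fell in resistant proficient cells, with medians of -0.45 and -0.72. TGM1, the transglutaminase that crosslinks the cornified envelope, fell in both (-1.79 and -1.48), as did the desmosomal protein DSP (-0.74 and -0.66). KRT6A did not pass the test in deficient cells (-0.36 ± 0.15, but -0.57 and called with the GC trend removed, and called without parental proficient replicate 1, -0.39, or 2, -0.36) and fell in proficient cells (-2.62), and KRT10 did not pass it in either (0.16 ± 0.15 and -0.12 ± 0.14). CST6, cystatin E/M, rose in deficient cells (0.70 ± 0.20), which turned to -0.52 with the GC trend removed and lost its call without parental replicate 2 (0.47) or resistant replicate 1 (0.39). In proficient cells it did not pass the test (0.29 ± 0.21), but did so with the GC trend removed (0.34) and without the filter on low counts (0.32).

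**Figure D4:**
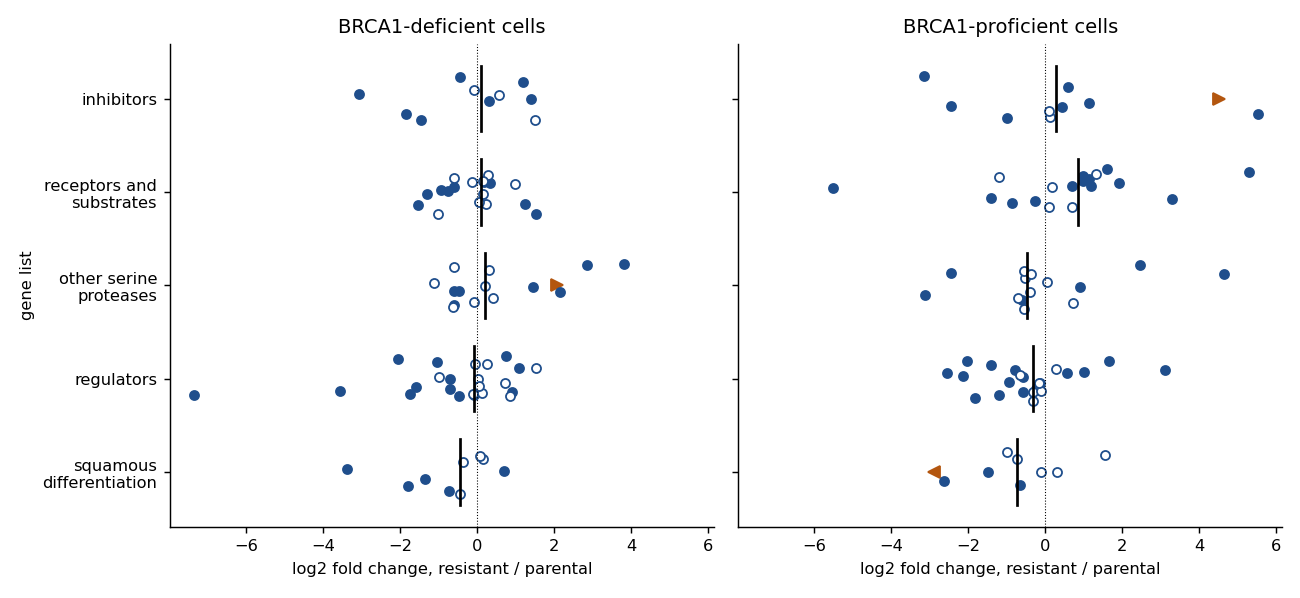
Log2 fold change of resistant against parental cells (x axis) for the tested genes of 5 lists (y axis), deficient cells on the left and proficient cells on the right. Blue circles are genes (filled where the edgeR adjusted p is under 0.05) and orange triangles are bounds against a group at 0 counts. Black bars are list medians with these bounds in place of fitted values, which lie between -0.72 and 0.84.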

How the data were processed

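Total RNA of 8 libraries was sequenced, and the deposited table holds raw counts of reads per gene symbol, not normalized. Build GRCh37 and the tools DESeq2 1.24.0, featureCounts, Subread 2.0.1 and Trimmomatic 0.39 are listed per the submitters' processing notes. The sources used here do not give the annotation, the strand setting or the handling of multi-mapped reads. Each library was assigned to its group by its title. The number of per-sample columns left unused was 0.

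The test was edgeR's quasi-likelihood test (edgeR 4.0.16, R 4.3.3), with TMM factors, the filterByExpr filter (16221 of 32803 genes kept), all 4 groups in 1 fit and 4 residual degrees of freedom. P-values were adjusted by Benjamini-Hochberg over all genes tested, and an SE is the log2 fold change divided by the square root of F. A gene rose or fell where the adjusted p was under 0.05. Against a group at 0 counts a bound was set by a floor of 3 counts in the pooled group, and against 1 to 3 counts a ratio has an exact 95% conditional binomial interval. The level of the counted group enters a bound without its counting error. A list's median gives genes at 0 in 1 group their fitted value.

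Chi-square tests of replicate counts found no pair of libraries alike within sampling noise (4.37 to 23.9 per degree of freedom). The fit was tested on simulated data with known changes. The members, the 6 gene lists and the rule for named genes were chosen with earlier results of these data known. That rule took all kallikreins, up to 3 genes of each list per comparison with the smallest p and at least 1 CPM, the 3 nearest neighbours on each side with up to 3 more per resistance comparison, and the 5 genes most like KLK5 and KLK10. Of the genes taken by it, 1 is not reported here. Gene order, promoters and synonyms came from RefSeq GRCh38.p14, and lengths, GC content and overlaps from GENCODE v29. Alternatives were library totals alone, RLE factors, no filter, DESeq2 1.42.0, a minimum of 1 CPM in 2 libraries, fits restricted to 2 groups, a block for the replicate number, removal of each library's GC trend (a natural spline with 5 degrees of freedom, for the 95.3% of tested genes with a known GC content) without and with that block, and each of the 8 libraries left out.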

Additional observations from a re-analysis of the deposited data

Results flagged for a closer look

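KLK6 differed in direction between the backgrounds: it was lower in both resistant deficient libraries and higher than 0 in both resistant proficient libraries. The difference in deficient cells was small, at a log2 of -0.31 ± 0.25 (SE), and was not called. The interaction term was called for KLK6, but it rests on a fitted fold over a group at 0 counts and on the counts that chose the gene, so it is no independent test of this difference.

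Of 32 named genes outside the family that were tested, 19 differed in their resistance effect between backgrounds by the interaction term of the edgeR fit at an adjusted p under 0.05. Over all genes tested, this term was called positive for 21.4% and negative for 25.3%. Many of the named genes were picked by their small p in these same data, so nothing is read from this number. Positive values mean a more positive effect in proficient cells. For 6 of the 19 the effect passed the test in both backgrounds with opposite signs, with log2 differences of effects of 10.5 for EHF, 1.48 for PRSS23, -2.95 for IGFBP3, -3.91 for TMPRSS4, -4.34 for SERPINF2 (whose rise in deficient cells was no longer called with the GC trend removed) and -10.4 for MYH14. Of the others, inhibitors and substrates gave 4.94 for A2M, 1.96 for SLPI, 3.09 for MUC16, 1.12 for CDH1, 0.66 for APP and -4.77 for FN1. Proteases gave -4.37 for TMPRSS2 and -3.05 for F3, and KRT6A gave -2.27. Among neighbours of the cluster the values were 4.38 for ZNF175, 1.60 for MYBPC2, -0.81 for EMC10 and -1.52 for CTU1.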

How the results depend on the processing

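Calls of the scarcer members depended on the processing. In deficient cells the number of members called fell from 2 to 1 with DESeq2, to 1 with the filter of at least 1 CPM, which leaves KLK8 untested, and ranged from 1 (without resistant deficient replicate 1) to 2 over the fits without 1 library. In proficient cells it fell from 4 to 2 in a fit of the 2 groups alone, and between the resistant derivatives from 4 to 2 with DESeq2. Neighbours called in proficient cells, 7 in all, ranged from 4 (without parental proficient replicate 1) to 8 over the fits without 1 library. With the GC trend removed, values in deficient cells reversed for CST6 (-0.522, and -0.520 with the replicate block), CTU1 (-1.15 in both), F3 (0.215 in both) and SPINT1 (-0.275 in both), and the median over all genes moved from 0.03 to 0.12 in deficient cells and from -0.02 to -0.18 between the resistant derivatives. The cause of these changes was not tested, except that the stricter filter tests fewer genes.

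Replicate numbers did not pair the libraries (correlations of same-numbered deviations between -0.0952 and 0.212 in the compared groups). With the number as a block, members called stayed at 2, 4, 3 and 4 in the pairwise comparisons, and neighbours called were 16 in deficient and 8 in proficient cells. The number of libraries per group and low counts limit the precision. KLK7, KLK11 and KLK13 had counts under 20 in every library, as had KLK5 in deficient cells and KLK8 outside resistant deficient cells. KLK10 had 22 and 5 counts in the resistant proficient libraries.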
